A study of Mus musculus with 6 samples.

Results

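The genes described here are 10 genes of cholesterol export, high-density lipoprotein (HDL), lysosomal cholesterol handling and cholesterol ester storage, measured in the liver of pregnant mice. They were taken by symbol, as the entries whose Ensembl identifier maps to *Abca1*, *Abcg1*, *Scarb1*, *Lcat*, *Pltp*, *Lipa*, *Npc1*, *Npc2*, *Soat2* and *Tspo*, which are 10 of the 56691 genes in the deposited table. The livers came from 3 KPF dams and 3 WPF dams. KPF dams were h*Chrebp* KO mice, *Chrebp* flox/flox animals that carry Cre under the albumin promoter of hepatocytes. They are designed to lose an exon of *Mlxipl*, the gene of the sugar-activated transcription factor ChREBP, in hepatocytes alone. WPF dams carried the same floxed alleles without Cre and are labelled WT. All dams were mated with *Chrebp* flox/flox males, were on a C57BL/6J background and received a high-fructose diet (HFrD, 70% fructose and 10 kcal% fat) from Day 0 of pregnancy to Day 17, so that neither diet nor pregnancy varies between the groups. Whether cells of the liver other than hepatocytes keep ChREBP in KPF was not measured here. The age of the dams is not given in the sources used here.

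Cholesterol leaves a cell when the transporters ABCA1 and ABCG1 pass it to apolipoprotein A-I or to HDL particles, and the liver is a main source of new HDL. In plasma, LCAT esterifies the cholesterol of HDL and PLTP moves phospholipids between particles, and SR-BI, the product of *Scarb1*, lets hepatocytes take HDL cholesterol up again. Inside the cell, lysosomal acid lipase frees cholesterol from lipoprotein esters, NPC2 and NPC1 carry it out of the lysosome, SOAT2 re-esterifies the excess for storage or for secretion with lipoproteins, and TSPO is a cholesterol-binding protein of the outer mitochondrial membrane.

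The libraries held 10694496 to 11567941 counted reads in KPF and 12988865 to 14496630 in WPF. *Mlxipl* was at 179, 700 and 849 CPM (TMM-scaled counts on a common library total) in KPF 1, 2 and 3 and at 961, 1260 and 879 CPM in WPF 2, 3 and 4. The groups did not overlap, although KPF 3 lay close to WPF 4 (log2 fold change -0.84, SE 0.53, adjusted p = 0.584 by edgeR). The table counts reads over all exons together, so the deleted exon was not measured on its own. KPF 2 stood apart through striated muscle genes, whose 3 markers (*Acta1*, *Ckm* and *Myh4*, called higher in KPF) summed to 1363 CPM there and to at most 4.41 CPM elsewhere. Genes of the mitochondrial genome took 33.2% to 35.0% of the reads in KPF and 18.7% to 29.1% in WPF, so that the groups did not overlap. The hepatocyte marker *Alb* was abundant in every library, between 64950 and 148722 CPM. The 7 hepatocyte markers summed to 85075, 79813 and 105676 CPM in KPF 1, 2 and 3. In WPF 2, 3 and 4 the sums were 171031, 103883 and 103014 CPM. Most of each sum was *Alb*, so the sums say little about the other markers. The log2 fold change was negative for 4 of these 7 markers, and 0 were called in either direction.

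For each gene, the groups were compared in edgeR's quasi-likelihood framework across 10866 genes whose FPKM averaged at least 1. FPKM is the count divided by exonic length and library total. No gene had an adjusted p under 0.05 by edgeR with Benjamini-Hochberg adjustment (smallest 0.397), while 1177 genes (10.8%) had an unadjusted p under 0.05 and DESeq2 gave 156 genes with an adjusted p under 0.05. A gene is therefore described as called lower or higher where the unadjusted p was under 0.05 and the change at least 1.5-fold, which is a ranking and not a controlled error rate. By that rule 433 genes (3.98%) were called lower and 634 (5.83%) higher in KPF. With library totals in place of TMM the split was 729 lower and 371 higher. With 3 dams a group, an exact permutation test cannot give a p below 0.1.

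Of the 10 members 9 passed the FPKM minimum, and *Abcg1* did not. The members were chosen with earlier results of these data known, so the shares of all tested genes below give scale and test nothing. *Pltp*, *Lipa* and *Tspo* were called lower in KPF, beside 3.98% of all tested genes, and 0 members were called higher, beside 5.83%. *Abca1* also had an unadjusted p under 0.05 but missed the fold limit, which makes 4 members against the 10.8% of all tested genes. In *Abca1*, *Pltp* and *Tspo* the KPF libraries all lay below the WPF libraries, an order seen in 8.15% of all tested genes. *Lcat* had the opposite order, as did 7.54% of all tested genes. The log2 fold change was negative for 7 of the 9 tested members and for 5283 of all 10866 tested genes. The median was -0.47 for the tested members against 0.02 over all tested genes. Under each of the scalings tried, the sign of each tested member stayed as it was, whereas *Abcg1* turned from 0.00 to -0.13 with library totals. In these whole-liver samples, fewer cells of a type and less RNA per cell cannot be told apart.

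**Figure D1:**
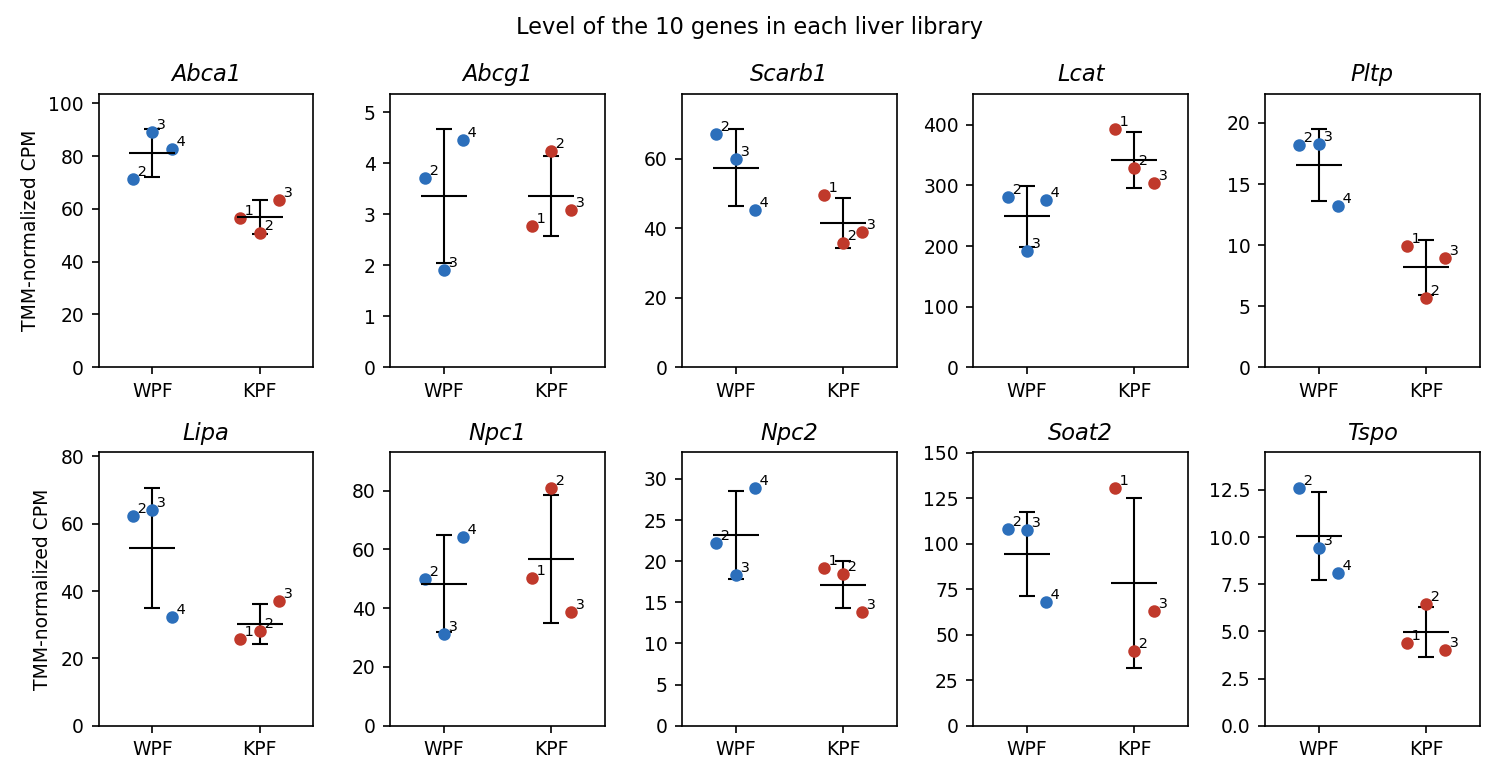
TMM-scaled CPM of the 10 members in each library (vertical axes, each from 0), with red points for the 3 KPF dams, blue points for the 3 WPF dams, both numbered by replicate, and bars for the mean and SD of each group. The KPF points of *Pltp*, *Tspo* and *Abca1* all lie below the WPF points, those of *Lcat* lie above them, and those of *Abcg1*, *Npc1* and *Soat2* are mixed.

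**Figure D2:**
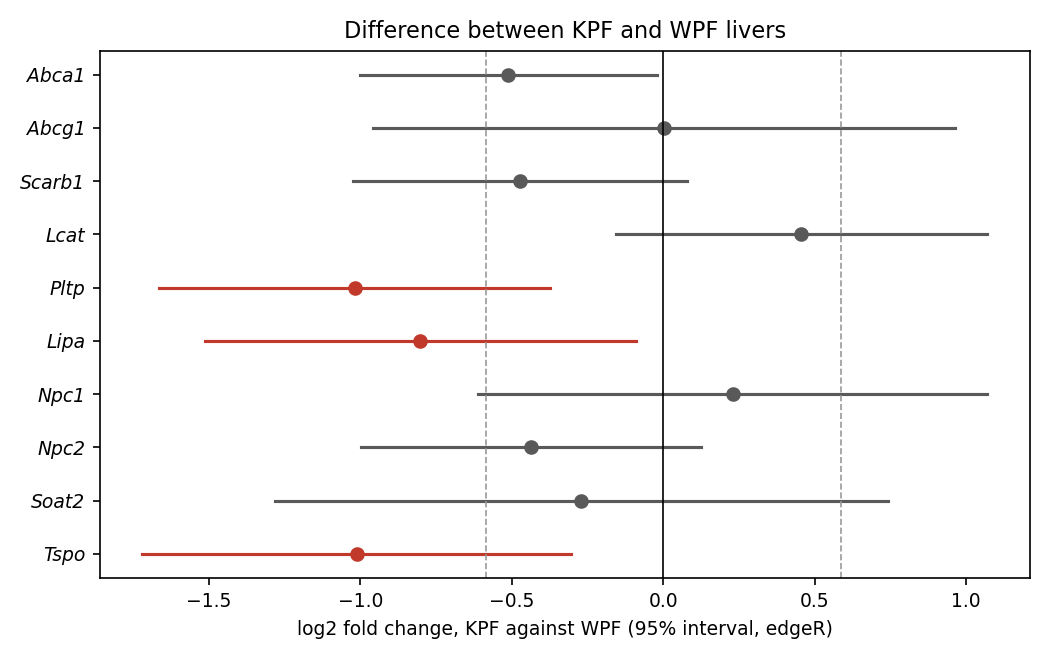
Log2 fold change of KPF over WPF (horizontal axis) for each member with its 95% interval from edgeR's quasi-likelihood fit, in red where the gene was called, and dashed lines at 1.5-fold. The intervals of *Pltp* (-1.66 to -0.37), *Tspo* (-1.72 to -0.31), *Lipa* (-1.51 to -0.09) and *Abca1* (-1.001 to -0.02) lie below 0 before any adjustment for the number of genes tested.

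The promoters of *Abca1*, *Pltp* and *Lipa* are shown because these are the members with an unadjusted p under 0.05 for which a sequence was matched. Sequences of 5 of the 10 members (*Abca1*, *Lcat*, *Pltp*, *Lipa* and *Npc2*), matched by symbol to RefSeq on GRCm38.p6, were read. The bases after the annotated start matched the opening of a GENCODE transcript for each of these except *Lcat*, whose start is therefore less certain. No match was found for *Abcg1*, *Scarb1*, *Soat2* and *Tspo*, and the promoter of *Npc1* was left out of the reading. Each run holds the 250 bases before the annotated start, written 5′ to 3′ on the strand of the gene, with its last base at position -1. Capitals mark matches on either strand to CACGTG (the E-box, the core that ChREBP and many other basic helix-loop-helix factors read), TCACGTGA (the core of the lysosomal CLEAR element, which contains an E-box), AGGTCA (a nuclear receptor site), TCACNCCAC (a core of the sterol regulatory element), GGGCGG (the Sp1 box) or CCAAT.
Abca1, chr4:53159896-53160145, minus strand: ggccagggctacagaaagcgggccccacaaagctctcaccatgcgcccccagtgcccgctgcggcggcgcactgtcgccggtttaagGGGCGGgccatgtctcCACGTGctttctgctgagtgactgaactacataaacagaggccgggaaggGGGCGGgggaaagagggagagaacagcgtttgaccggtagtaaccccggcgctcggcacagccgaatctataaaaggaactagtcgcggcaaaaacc
Pltp, chr2:164857709-164857958, minus strand: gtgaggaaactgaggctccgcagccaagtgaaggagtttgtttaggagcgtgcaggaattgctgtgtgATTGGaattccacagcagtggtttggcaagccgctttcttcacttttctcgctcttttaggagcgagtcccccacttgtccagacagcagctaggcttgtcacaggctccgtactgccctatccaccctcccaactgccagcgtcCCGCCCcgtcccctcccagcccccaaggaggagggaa
Lipa, chr19:34527475-34527724, minus strand: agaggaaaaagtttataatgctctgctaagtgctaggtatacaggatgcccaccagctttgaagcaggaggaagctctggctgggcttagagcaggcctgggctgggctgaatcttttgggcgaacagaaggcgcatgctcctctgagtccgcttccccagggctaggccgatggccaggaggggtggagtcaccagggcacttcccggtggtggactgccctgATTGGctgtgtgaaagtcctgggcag

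The *Abca1* promoter held 1 E-box, at position -147, between Sp1 boxes at -163 and -97. An E-box was present in 6.02% of the 32851 promoters of the same length and an Sp1 box in 32.7%. The *Pltp* promoter held an Sp1 box at -37 and a CCAAT box at -182, both on the opposite strand. The *Lipa* promoter held, of these motifs, only a CCAAT box, on the opposite strand, at -26. A CCAAT box was present in 33.8% of all promoters. The exact letters of the CLEAR core (0.785% of all promoters) and of the sterol regulatory core (1.05%) were in none of the 5 windows read. Neither was AGGTCA, present in 4607 of the 32851 promoters. Nuclear receptor sites with other letters were not searched, so whether these windows hold them is not known. These matches describe the letters of these windows and were not measured as binding.

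Among the efflux transporters, *Abca1* (ENSMUSG00000015243, chr4:53030787-53159895, minus strand, GRCm39), which loads cholesterol and phospholipid onto apolipoprotein A-I, was lower in KPF without reaching the fold limit. It was at 56.6, 50.8 and 63.5 CPM in KPF 1, 2 and 3, against 71.5, 89.2 and 82.9 CPM in WPF 2, 3 and 4. The highest KPF library lay below the lowest WPF library. The means were 56.9 ± 6.37 and 81.2 ± 8.99 CPM (SD, n = 3 each), which is 29.9% lower in KPF. The log2 fold change was -0.51 (SE 0.21, 95% interval -1.001 to -0.02, unadjusted p = 0.0430, adjusted p = 0.452 by edgeR's quasi-likelihood test). The exact two-sided permutation test gave p = 0.1, the smallest that it can give. With library totals in place of TMM the log2 fold change of *Abca1* was -0.66, past both limits of a call, while the median of all tested genes moved to -0.12. Its unadjusted p was under 0.05 in 8 of the 16 alternatives. Scaled to the reads outside mitochondrial genes, the log2 fold change of *Abca1* was -0.46 (unadjusted p = 0.0907 by edgeR's quasi-likelihood test). Without WPF 3 it was -0.44 (unadjusted p = 0.136 by edgeR's quasi-likelihood test).

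*Abcg1* (ENSMUSG00000024030, chr17:31276649-31336962, plus strand), which passes cholesterol to HDL particles that already hold lipid and is best known from macrophages, was close to the detection limit. It had 27 to 76 reads a library, where counting alone gives a coefficient of variation of 19.2% at the lowest count and 11.5% at the highest. *Abcg1* was at 2.76, 4.25 and 3.07 CPM in KPF livers, against 3.72, 1.897 and 4.45 CPM in WPF. The KPF range lay inside the WPF range, with means of 3.36 ± 0.782 and 3.35 ± 1.31 CPM. The 95% interval of its log2 fold change, -0.96 to 0.96, is wide on both sides of 0, so neither a higher nor a lower level in KPF was resolved.

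For uptake, *Scarb1* (ENSMUSG00000037936, chr5:125354151-125418158, minus strand) was at 49.5, 35.7 and 38.9 CPM in KPF livers, against 67.0, 60.1 and 45.4 CPM in WPF. KPF 1 lay above WPF 4, and the other libraries kept apart. The mean of 41.4 ± 7.22 CPM in KPF against 57.5 ± 11.03 CPM in WPF gave a log2 fold change of -0.47 (SE 0.24, unadjusted p = 0.0837, adjusted p = 0.510 by edgeR). *Scarb1* therefore did not pass the test. Without KPF 1 its log2 fold change was -0.62 and without WPF 4 it was -0.63, and both passed the limits of a call. *Scarb1* was not called without WPF 2 (-0.35), KPF 2 (-0.38), KPF 3 (-0.43) or WPF 3 (-0.44). It was called in 3 of the 16 alternatives.

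The plasma proteins that remodel HDL are encoded by *Pltp* and *Lcat*. *Pltp* (ENSMUSG00000017754, chr2:164681438-164699631, minus strand) had the smallest p of the members. It was at 9.91, 5.66 and 8.93 CPM in KPF 1, 2 and 3, against 18.2, 18.3 and 13.2 CPM in WPF 2, 3 and 4. All KPF libraries lay below the lowest WPF library, WPF 4, and KPF 2 was the lowest of all. The means of 8.17 ± 2.22 and 16.6 ± 2.93 CPM differ 2.03-fold (log2 fold change -1.02, SE 0.28, unadjusted p = 0.00711, adjusted p = 0.429 by edgeR). *Pltp* passed both limits in all 16 alternative fits, at log2 fold changes of -1.35 to -0.82. In 15 of them it was among the tested genes, with adjusted p from 0.104 to 0.823 by the test used in each. With a minimum mean FPKM of 5 it was fitted but, at a mean FPKM of 4.88, not tested, so it has no adjusted p there and is not counted as called. The counts behind it were 64 to 260 reads, which gives a counting coefficient of variation of 12.5% to 6.20%. The 3′ end of *Pltp* overlaps that of *Ctsa*, a lysosomal carboxypeptidase on the other strand with 1371 to 3325 reads, and whether the counting used strand is not given in the sources used here. *Ctsa* itself had a log2 fold change of -0.41 (unadjusted p = 0.146 by edgeR).

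By the distance between their profiles over the 6 libraries (log2 CPM around each gene's mean), the 3 tested genes nearest to *Pltp* were *Eva1a* at a root-mean-square distance of 0.146, *Htatip2* at 0.152 and *Pmvk* at 0.163 log2 units. They had log2 fold changes of -0.89, -0.81 and -1.14, values that the choice of the nearest profiles brings with it. *Pmvk* is phosphomevalonate kinase, an enzyme of cholesterol synthesis.

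*Lcat* (ENSMUSG00000035237, chr8:106666183-106670014, minus strand) was the most abundant member and the only one with every KPF library above every WPF library. It was at 393, 329 and 304 CPM in KPF livers, against 281, 192 and 275 CPM in WPF. The gap between KPF 3 and WPF 2 was small beside the spread inside each group. With means of 342 ± 46.0 and 249 ± 50.2 CPM the log2 fold change was 0.46 (SE 0.26, 95% interval -0.16 to 1.07, unadjusted p = 0.124, adjusted p = 0.559 by edgeR), so *Lcat* did not pass the test. It was called in 0 of the 16 alternative analyses, with log2 fold changes of 0.30 to 0.55.

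Of the lysosomal members 1 was called. *Lipa* (ENSMUSG00000024781, chr19:34469718-34504874, minus strand), the gene of lysosomal acid lipase, was called lower. It was at 25.8, 28.04 and 37.0 CPM in KPF 1, 2 and 3, against 62.2, 64.1 and 32.2 CPM in WPF 2, 3 and 4. WPF 2 and WPF 3 were far above all KPF libraries, whereas WPF 4 lay inside the KPF range. The means of 30.3 ± 5.91 and 52.8 ± 17.9 CPM gave a log2 fold change of -0.80 (SE 0.31, unadjusted p = 0.0326, adjusted p = 0.434 by edgeR). The exact permutation p was 0.2. *Lipa* was no longer called without KPF 1 (-0.70), KPF 2 (-0.76), WPF 2 (-0.67) or WPF 3 (-0.64), and without WPF 4 its log2 fold change was -1.07.

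*Npc2* (ENSMUSG00000021242, chr12:84801336-84819926, minus strand), the soluble carrier that takes cholesterol from the lysosomal lumen, was at 19.1, 18.4 and 13.8 CPM in KPF livers, against 22.2, 18.3 and 28.9 CPM in WPF. WPF 3 lay just below KPF 2, so the groups overlapped. The log2 fold change of -0.44 (SE 0.24, unadjusted p = 0.111, adjusted p = 0.545 by edgeR) did not pass the test. *Npc1* (ENSMUSG00000024413, chr18:12322749-12369457, minus strand), the membrane protein that receives cholesterol from NPC2, was at 50.3, 81.0 and 38.8 CPM in KPF livers, against 49.9, 31.1 and 64.2 CPM in WPF. Its groups were mixed, and the log2 fold change was 0.23 (SE 0.36, 95% interval -0.61 to 1.07, unadjusted p = 0.546 by edgeR). *Npc1* overlaps *Rmc1* on the other strand, which had 211 to 388 reads. The log2 fold change of *Npc1* turned sign without KPF 2 (-0.12) and without WPF 3 (-0.0082). The difference in fold change between *Lipa* and the NPC genes was not tested.

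*Soat2* (ENSMUSG00000023045, chr15:102058961-102071904, plus strand), the cholesterol esterification enzyme of hepatocytes and enterocytes, varied more between dams of a group than between the groups. It was at 131, 41.1 and 63.1 CPM in KPF 1, 2 and 3, against 108, 108 and 67.8 CPM in WPF 2, 3 and 4. KPF 1 was the highest of all libraries and KPF 2 the lowest. The log2 fold change was -0.27 (SE 0.43, 95% interval -1.28 to 0.74, unadjusted p = 0.552, adjusted p = 0.830 by edgeR). Without KPF 1 it was -0.86, past the limits of a call, and without KPF 2 it was 0.031, so the value of *Soat2* rests on those libraries.

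*Tspo* (ENSMUSG00000041736, chr15:83447793-83458404, plus strand) was called lower. It was at 4.38, 6.46 and 4.03 CPM in KPF 1, 2 and 3, against 12.6, 9.41 and 8.08 CPM in WPF 2, 3 and 4. All KPF libraries lay below the lowest WPF library, WPF 4. The means of 4.96 ± 1.31 and 10.04 ± 2.33 CPM differ 2.02-fold (log2 fold change -1.01, SE 0.30, unadjusted p = 0.0115, adjusted p = 0.429 by edgeR). *Tspo* was called in 15 of the 16 alternative analyses, and without WPF 2 its log2 fold change of -0.82 had an unadjusted p of 0.0504 by edgeR. The gene had 42 to 146 reads a library, and its start overlaps that of *Mcat* on the other strand, which had 71 to 130 reads.

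**Figure D3:**
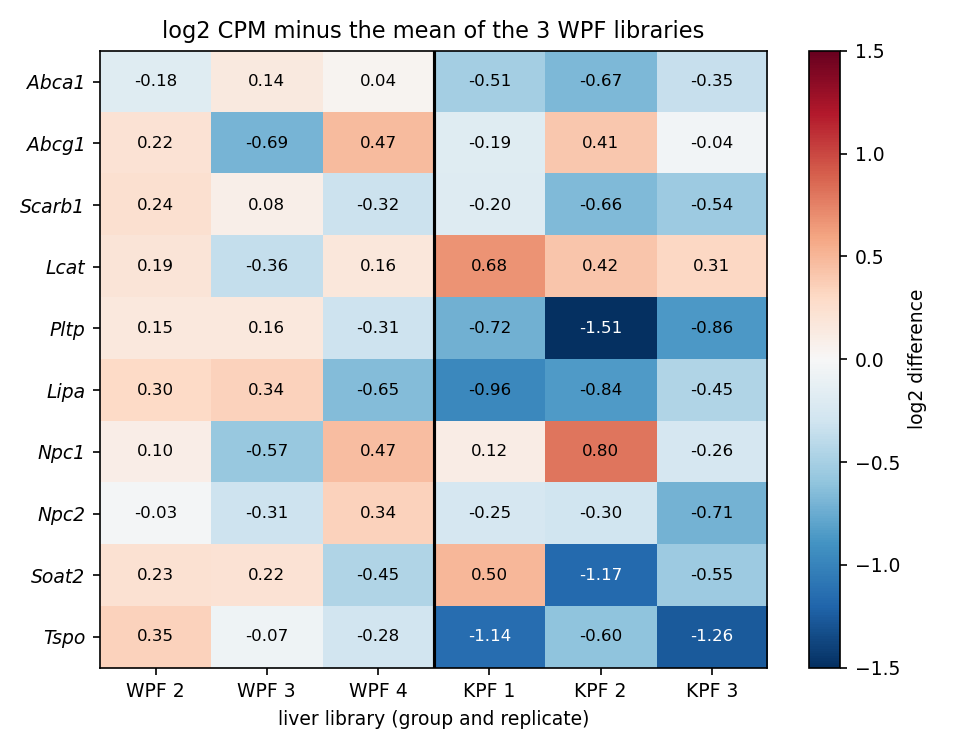
Heatmap of log2 CPM minus the WPF mean for each member (vertical) and library (horizontal), with the value written in each cell. *Pltp* is at -0.72, -1.51 and -0.86 in the KPF libraries, while *Lipa* in WPF 4 (-0.65) is as low as in KPF and *Soat2* runs from 0.50 in KPF 1 to -1.17 in KPF 2.

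The extremes of the 10 members did not all fall in a single library. WPF 4 was the lowest of its group in 5 of the 10 members and the highest in 3. The 5 include all 3 called members, with WPF 4 at -0.31 for *Pltp*, -0.65 for *Lipa* and -0.28 for *Tspo* (log2 CPM minus the WPF mean). Without WPF 4 the log2 fold change was -1.17 for *Pltp*, -1.07 for *Lipa* and -1.16 for *Tspo*. KPF 1 was the highest of its group in 5 members and the lowest in 2. Without KPF 2, the library with muscle genes, the log2 fold change was -0.82 for *Pltp*, -1.26 for *Tspo*, -0.76 for *Lipa* and -0.44 for *Abca1*, and only *Pltp* and *Tspo* of the members were called. Scaled to the reads outside mitochondrial genes, an analysis added after seeing the data, *Pltp* was at -0.95, *Tspo* at -0.93 and *Lipa* at -0.74, and all 3 were called.

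**Figure D4:**
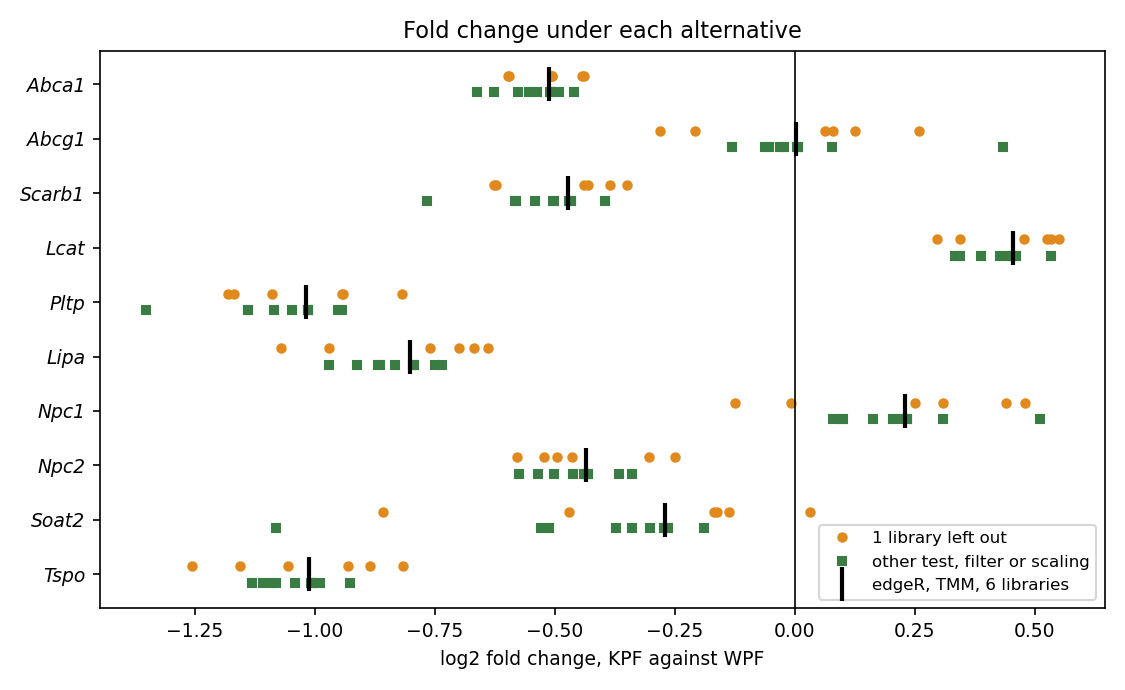
Log2 fold change of each member (vertical) (horizontal axis) in the reported edgeR analysis of all 6 libraries (black bars), with 1 library left out (circles) and with another test, filter or scaling (squares). The fits of *Pltp* stay between -1.35 and -0.82, whereas *Abcg1*, *Npc1* and *Soat2* have values on both sides of 0.

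Levels per exonic length give the order of the members within a liver. By deposited FPKM, *Lcat* led in WPF with 194 ± 43.98, followed by *Soat2* with 44.1 ± 8.32 (SD, n = 3). *Tspo* (9.82 ± 0.820), *Abca1* (8.30 ± 1.87), *Lipa* (8.01 ± 2.33), *Scarb1* (6.99 ± 0.690), *Pltp* (6.71 ± 0.894), *Npc1* (4.53 ± 1.92) and *Npc2* (4.52 ± 1.51) came next in WPF. Each gene from *Tspo* to *Npc1* overlapped the next one in range, so the order among these neighbours is not resolved. *Abcg1* was last, at 0.483 ± 0.222 FPKM. In KPF the mean FPKM was 245 ± 41.9 for *Lcat* and 34.1 ± 21.1 for *Soat2*, and 4.55 ± 1.39 for *Tspo*, below *Abca1* (5.25 ± 0.335), *Npc1* (4.86 ± 2.06) and *Scarb1* (4.67 ± 0.907). The KPF range of *Tspo* (3.45 to 6.11) overlapped those of *Abca1*, *Npc1* and *Scarb1*, so this order in KPF is not resolved either.

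The exonic length in the table joins the exons of all transcripts, and for some members it is far longer than any 1 transcript. *Scarb1* has 8500 exonic bases in the table and 2521 in its longest coding transcript of GENCODE M21. Per length of that transcript, *Scarb1* in WPF came to 23.6 ± 2.33 and *Lipa* to 18.3 ± 5.32, behind *Lcat* and *Soat2*. The WPF range of *Lipa* (12.8 to 23.4) overlapped those of *Scarb1* (21.2 to 25.9), *Tspo* (11.4 to 13.4) and *Npc1* (6.46 to 14.5), so its place among them is not resolved. *Abcg1* stayed last at 0.605 ± 0.278. The comparison of KPF with WPF for a gene does not depend on this length.

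The other genes of the pathways were read from 4 hand-written lists. Like the members, these lists were chosen with earlier results of these data known, so the shares describe them and test no enrichment. In the lists 5 of 63 tested genes (7.94%) were called lower in KPF, against 3.98% of all tested genes. Called higher were 0, against 5.83%. In 8 of the 16 alternatives 1 to 3 of the lists' genes were called higher. Among plasma HDL and lipoprotein partners, 1 of 14 tested genes was called lower and 0 higher, with a median log2 fold change of -0.22. The called gene was *Apoa2*, the second major apolipoprotein of HDL, at 3025, 4485 and 5157 CPM in KPF livers, against 8830, 6608 and 6538 CPM in WPF, without overlap (log2 fold change -0.79, unadjusted p = 0.0403 by edgeR). *Saa4*, an apolipoprotein of HDL, was at 184 ± 101 CPM in KPF livers, against 89.8 ± 33.0 CPM in WPF (log2 fold change 1.03, unadjusted p = 0.0530), and *Apoe* at -0.54 on the log2 scale (unadjusted p = 0.141 by edgeR).

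Among genes of the oxysterol receptors LXR, which induce *Abca1*, *Abcg1* and *Pltp* in many tissues, 2 of 11 tested were called lower, beside 3.98% of all tested genes, and 0 higher, with a median of -0.08. *Lpcat3*, which builds polyunsaturated phospholipids, was at 37.9, 51.4 and 43.6 CPM in KPF livers, against 101, 81.6 and 69.0 CPM in WPF (log2 fold change -0.92, unadjusted p = 0.00531 by edgeR). *Smpdl3a*, a phosphodiesterase, had a log2 fold change of -0.77 (unadjusted p = 0.0293 by edgeR). *Srebf1*, the gene of the lipogenic factor SREBP-1, had every KPF library below every WPF library but a wide spread, from 21.4 CPM in KPF 1 to 116 CPM in KPF 2 (log2 fold change -1.03, unadjusted p = 0.0928 by edgeR). The median of all tested genes was 0.02.

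Among genes of cytosolic and membrane sterol handling, 1 of 15 tested was called lower, beside 3.98% of all tested genes. Called higher were 0, beside 5.83%, and the median was -0.06. *Stard4*, a carrier of cholesterol between membranes, was the called gene, at 20.1 ± 2.91 CPM in KPF livers, against 32.8 ± 12.9 CPM in WPF, where WPF 4 alone was at 47.6 CPM (log2 fold change -0.71, unadjusted p = 0.0452 by edgeR). *Scp2* (-0.46) and *Gramd1c* (-0.41) followed with unadjusted p of 0.192 and 0.264 by edgeR. In the lysosome list, 1 of 23 tested genes was called lower and 0 higher, so the call lower is near the share of all tested genes. The log2 fold change was negative for 16 of the 23, with a median of -0.18, and for 5283 of all 10866 tested genes. The called gene was the protease gene *Ctsl*, at 76.3, 55.7 and 56.4 CPM in KPF livers, against 149, 118 and 73.5 CPM in WPF (log2 fold change -0.85, unadjusted p = 0.0262 by edgeR). As for *Lipa*, WPF 4 lay inside the KPF range. The galactosidase gene *Glb1* (-0.66, unadjusted p = 0.0556 by edgeR) and the membrane protein gene *Cd63* (0.91, unadjusted p = 0.0885 by edgeR) came next.

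**Figure D5:**
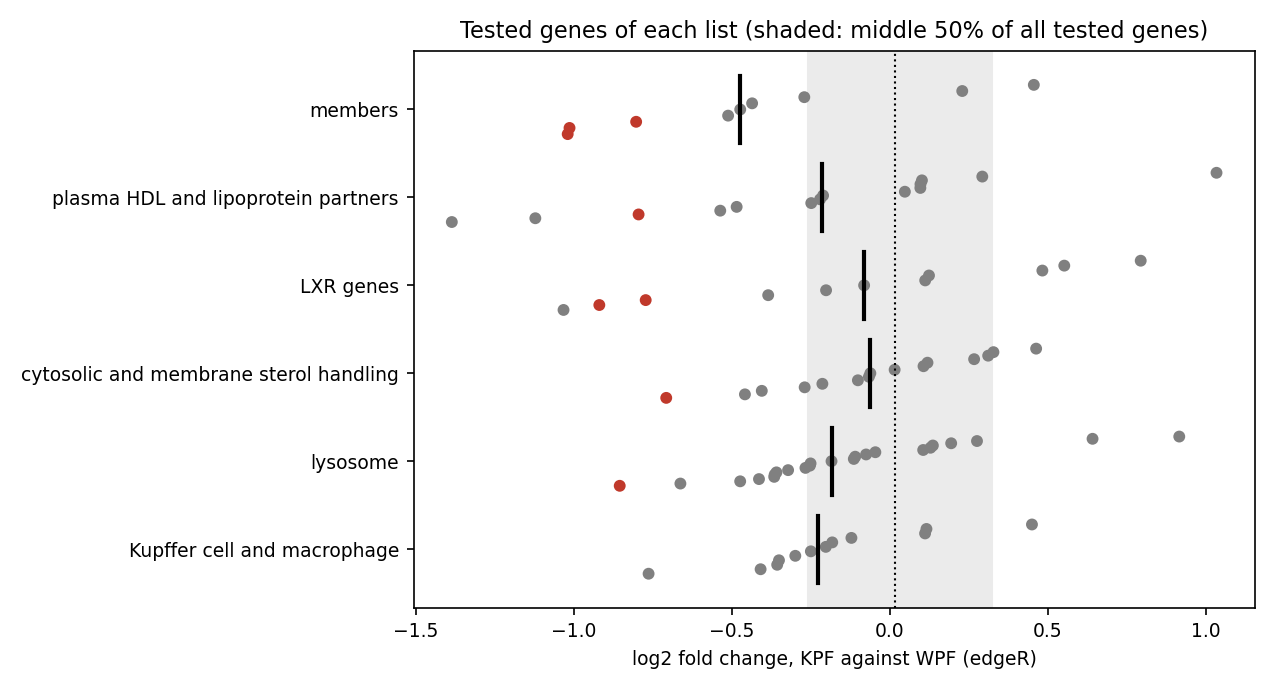
Log2 fold change of KPF over WPF (horizontal axis) for the tested genes of the members, the 4 pathway lists and the Kupffer cell markers, 1 point a gene, with called genes in red and a black bar at the median of each list. The dotted line is the median of all 10866 tested genes (0.02) and the shaded band holds the middle 50% of them. The median is -0.47 for the 9 tested members and between -0.23 and -0.06 for the lists.

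Several members are also expressed in macrophages, so markers of other liver cells were read beside them. Of 12 Kupffer cell and macrophage markers, 0 were called in either direction, none was at 0 in any library, and their summed level was 227 to 298 CPM in KPF livers, against 209 to 441 CPM in WPF. *Cd5l*, a secreted macrophage protein, was the one with the smallest p (log2 fold change -0.76, unadjusted p = 0.0605 by edgeR), with every KPF library below every WPF library. *Clec4f*, a defining Kupffer cell gene, was at 77.8 to 126 CPM in KPF livers, against 72.5 to 136 CPM in WPF. Markers of stellate cells and fibroblasts were called higher in KPF for 4 of 7 genes (*Col3a1*, *Col1a1*, *Des* and *Reln*), against 5.83% of all tested genes. The log2 fold change was negative for 1 of the 7. The 7 markers summed to 157 to 657 CPM in KPF livers, against 94.6 to 120 CPM in WPF. *Des* was at 486 CPM in KPF 2, the library with muscle genes, and at 10.1 CPM in KPF 3, inside the WPF range of 7.32 to 10.5 CPM. Of 7 endothelial markers 1 was called higher in KPF, against 5.83% of all tested genes, and 0 lower. The called gene was *Pecam1* (log2 fold change 0.75, unadjusted p = 0.009998 by edgeR). *Pecam1* and *Fcgr2b* (0.39, unadjusted p = 0.0853 by edgeR) had no KPF library at or below a WPF library. The endothelial markers summed to 118 to 138 CPM in KPF livers, against 105 to 129 CPM in WPF, and adipocyte markers to at most 5.43 CPM. The part of these cells in the values of the members was not tested.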

How the data were processed

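Liver poly(A) RNA of 3 KPF and 3 WPF dams was sequenced. The authors deposited raw read counts and FPKM per gene with the exonic length, all from 1 table. The submitters' processing notes name cutadapt 1.9.1, HISAT2 2.2.1, HTSeq 0.6.1, DESeq2 and GRCm39. Each of the 340146 deposited FPKM values equals, within 0.01, the count divided by exonic length and by the library total. Symbols were matched through Ensembl identifiers (52073 of 56691).

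Counts were TMM-scaled (factors 0.891 to 1.18) and tested with edgeR 4.0.16 in R 4.3.3 (quasi-likelihood test, group as the only term, mean FPKM of at least 1, Benjamini-Hochberg over 10866 genes). *Abcg1*, below that minimum, was fitted with the tested genes and has no adjusted p. Calls required 1.5-fold or more together with an unadjusted p under 0.05. Single members were also compared by an exact two-sided permutation test. The test was tried on simulated counts first. The table holds 0 columns of other samples.

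Named genes were all members, the 3 tested genes with the smallest p in each pathway list (of the marker lists, the tested genes that were called, and *Cd5l*, *Clec4f*, *Fcgr2b* and *Alb*), the 3 profiles nearest to the member with the smallest p, and *Mlxipl*. *Ctsa*, *Mcat* and *Rmc1* were named for their overlap with members. The members and lists were chosen with earlier results of these data known, and the pathway lists are hand-written. No pair of libraries of a group was alike within sampling noise (chi-square per gene of 48.1 or more). Libraries are separate dams, and p-values measure the spread between them. Depth was 10694496 to 14496630 counted reads. Counting coefficients of variation cover counting error only. Alternatives were limma 3.58.1 on log2(FPKM + 0.1) or log2(FPKM + 1), DESeq2 1.42.0, other scalings and filters, each library left out and the replicate number as a block. Columns other than counts, FPKM, length and position were not used.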

Additional observations from a re-analysis of the deposited data

How the results depend on the processing

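No member was called higher under any of the 16 alternatives. Members called lower numbered 3, but 5 with the replicate block (*Scarb1* at -0.77 and *Soat2* at -1.08 added) and 1 to 4 when 1 library was left out, the 1 being without WPF 2. Replicate numbers 2 and 3 occur in both groups but mark different dams, and the deviations of same-numbered libraries correlated at 0.06 and -0.04. The 5 called genes of the pathway lists became 8 with limma on log2(FPKM + 0.1), 3 with a mean FPKM of at least 5, 10 without the filter and 2 to 7 with 1 library left out (2 without WPF 3, 3 without WPF 2). Of these calls, 3 of 6 were higher in KPF with the replicate block, 3 of 6 without KPF 3, 3 of 7 without WPF 4, 2 of 10 without the filter, and 1 each with DESeq2, with non-mitochondrial scaling, without KPF 1 and without KPF 2. Over all genes, 1067 were called, 461 with a mean FPKM of at least 5, 2486 without the filter and 571 to 1620 with 1 library left out (571 without WPF 3, 641 without WPF 2, 1620 without KPF 3), and 1232 with the replicate block. Genes with an adjusted p under 0.05 numbered 0 in the reported edgeR fit and 156 with DESeq2. By the same edgeR test they numbered 286 without the filter and 0 to 5 with 1 library left out (5 without WPF 4). The sign turned for *Abcg1* with edgeR's filterByExpr (-0.023), library totals (-0.13), limma with pseudocounts of 0.1 (-0.053) and 1 (-0.032), no filter (-0.062) and without KPF 2 (-0.21) or WPF 3 (-0.28). It also turned for *Npc1* without KPF 2 (-0.12) or WPF 3 (-0.0082), and for *Soat2* without KPF 2 (0.031). With 1 library left out, log2 fold changes ran from -0.28 to 0.26 for *Abcg1*, -0.12 to 0.48 for *Npc1* and -0.86 to 0.031 for *Soat2*. The cause was not tested. The filterByExpr and non-mitochondrial scaling were chosen after seeing the data. *Pltp*, *Tspo* and *Abcg1* rest on fewer than 100 reads in some libraries.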
